A study of Homo sapiens with 12 samples.

Results

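Ovarian cancer ascites, the protein-rich fluid that collects in the peritoneal cavity in this disease, was added to CAOV3 cells that were also exposed to bezafibrate, a fibrate drug that activates PPAR nuclear receptors. CAOV3 is a human cell line that the labels describe as epithelial high grade serous, of ovarian origin and wild-type genotype. The comparison set 3 libraries of cells given 200 uM bezafibrate with 10% ascites (the combination) against 3 libraries of cells given 200 uM bezafibrate alone. Membership followed the sample titles, and these are 6 of the 12 libraries of the series. The other 6 libraries, 3 control and 3 with ascites alone, entered the estimate of the spread. They also gave the contrast of ascites against control, without the drug. Cells of both groups were seeded in 1.5 mL DMEM with 10% serum and antibiotics and treated for 16 hours, and the ascites came to 150 uL. Ascites alone was given for 16 hours as well, while no treatment time is stated for the control group. The labels name the solvent DMSO for the control and ascites-alone groups and for neither group compared here, so solvent does not separate the 2 groups as labelled. How many ascites samples were used, and whether replicates came from separate cultures, is not stated, so SDs and p-values measure the spread between these libraries, which may be technical.

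Cholesterol is built from acetyl-CoA through the mevalonate pathway and then from squalene, and the enzymes of both stretches are transcribed under the SREBP factors. SREBP precursors stay in the endoplasmic reticulum with their escort SCAP while sterols are plentiful, held there by the INSIG proteins. SREBP1 acts more on fatty acid synthesis and desaturation. TFRC, the transferrin receptor, imports transferrin-bound iron, and its mRNA is stabilised by iron regulatory proteins when cellular iron is low. CCN1, CCN2 and ANKRD1 are widely read as target genes of the coactivators YAP and TAZ, which bind DNA through TEAD factors. FABP4, a fatty acid binding protein, is a known PPAR target.

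Total counts of the 6 libraries ranged from 11831093 to 18762759, and 12470 of 19677 genes passed the filter on low counts. Combination replicate 3 lay at -23.2 on the first principal component of the 6 libraries (30.7% of the variance), with the other 5 between -3.61 and 9.47. Combination replicate 2 lay at -20.2 on the second (21.7%), with the others between -0.226 and 8.69. The 2 libraries that stood apart therefore belonged to the combination group, and results are given below also without a library where its absence ended a call.

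The label of a serous carcinoma line was checked on 14 marker genes. The epithelial keratins KRT7, KRT8 and KRT18 averaged 1118, 2914 and 1720 CPM with bezafibrate alone (CPM is edgeR's count scaled to library depth). PAX8, a lineage factor of this cancer, averaged 1.11 CPM with the drug alone and 0.754 CPM in the combination, WT1 had 2 counts in each group, and MUC16, SOX17 and EMX2 had 0 counts in all 6 libraries. Several defining serous markers were thus near or at 0. A count of 0 in 3 libraries allows up to 3 counts, or 0.0603 CPM for bezafibrate alone and 0.0738 CPM for the combination, for counting error only. EPCAM, CLDN4 and CDH6 averaged 31.2, 196 and 16.4 CPM with bezafibrate alone. None of the 8 testable markers was called, but the 3 keratins had unadjusted p-values in edgeR under 0.05 and stood higher in the combination. Their log2 fold changes were 0.09 for KRT7, 0.08 for KRT8 and 0.10 for KRT18. The other testable markers did not rise alike, with PAX8 at -0.53, CLDN3 at -0.18, CDH6 at -0.07, CLDN4 at -0.03 and EPCAM at 0.00. Cells carried in the fluid were looked for as well. Of 9 leukocyte markers 7 were at 0, PTPRC, CD3E and CD2 among them, and the summed level of the list was 2.80 to 4.46 CPM with bezafibrate alone and 3.11 to 4.93 CPM in the combination. All 3 platelet markers were at 0. Red cell markers summed to 0.543 to 0.807 CPM against 1.01 to 1.41 CPM in the combination, where HBB had 9 counts against 1. Mesothelial markers summed to 2.68 to 2.89 CPM against 3.17 to 4.25 CPM, fibroblast markers to 166 to 177 CPM against 159 to 177 CPM, and endothelial markers to 0.538 to 0.618 CPM against 0.422 to 0.764 CPM. The fibroblast sum was almost all LUM, which averaged 164 CPM with bezafibrate alone and 162 CPM in the combination. COL1A1 averaged 3.89 and 3.46 CPM and COL3A1 2.36 and 2.55 CPM. COL1A2 had 1 count in each group, and DCN had 0 counts and 1 count. No gene of these lists was called. The part of the red cell and mesothelial sums in the results was not tested. In bulk RNA, fewer cells of a type and less RNA per cell cannot be told apart.

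Adding ascites to bezafibrate-treated cells lowered the transferrin receptor TFRC and a set of sterol and fatty acid synthesis genes, and raised CCN1, CCN2, ANKRD1 and FABP4. Changes were small: among called genes above 10 CPM the largest was 31.7%, for ANKRD1, and the smallest 9.13%, for HMGCS1. At an adjusted p under 0.05 from edgeR's quasi-likelihood fit, 16 of 12470 genes passed and are named called here, which is 0.128% of the genes tested. Of these 11 were lower (0.0882%) and 5 higher (0.0401%), and in all 16 the 3 combination libraries lay outside the range of the 3 bezafibrate libraries. Such separation is favoured by the choice of called genes. Over all genes tested, the groups did not overlap for 4.83% in the lower direction and 4.44% in the higher. At an unadjusted p under 0.05 there were 597 genes, 309 lower and 288 higher. The median log2 fold change over all genes was -0.00059, and 75.8% of genes lay within 0.1 of 0. The precision followed the level: the median SE of a log2 fold change was 0.037 for the 2435 genes at 100 CPM or more, where 6 were called, and 0.42 for the 563 genes under 1 CPM, where 0 were called. The count of called genes depended on single libraries. It was 9 without bezafibrate replicate 2, 10 without bezafibrate replicate 1, and 28 without combination replicate 3, with 12 of the 16 among those 28. With the spread estimated from the 6 libraries alone, 7 genes were called, all of them lower and all among the 16.

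**Figure D1:**
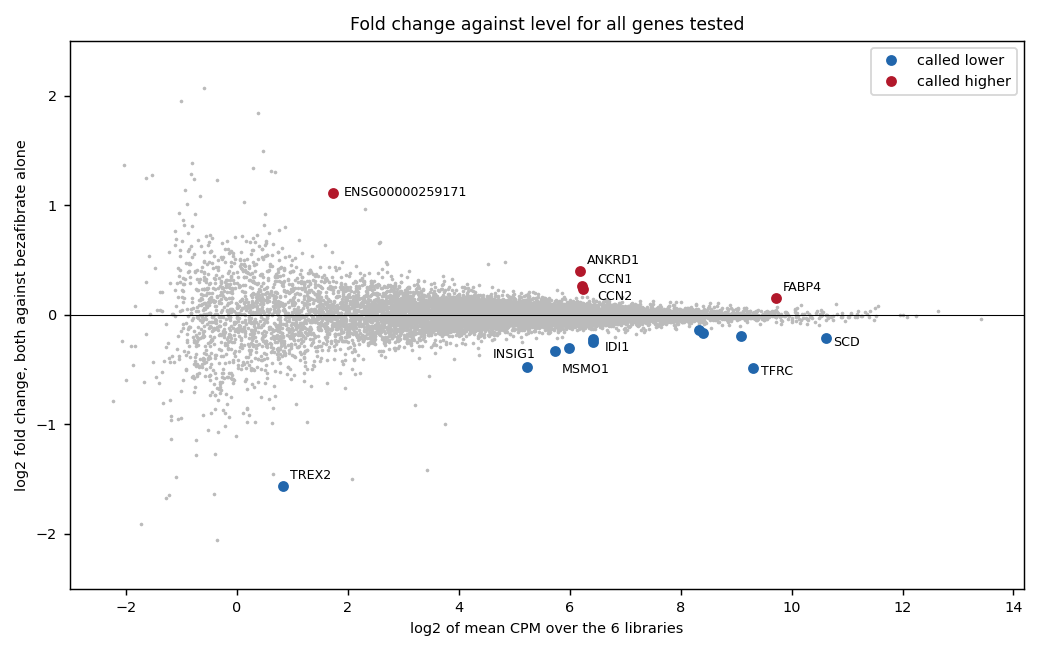
Log2 fold change (combination against bezafibrate alone, vertical axis) against the log2 mean CPM of the 6 libraries (horizontal axis), 1 point per gene tested, with the 16 called genes in colour. Most genes lie close to 0, the spread widens at low levels, and TFRC and SCD stand out below it at high levels.

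TFRC (ENSG00000072274, chr3:196027183-196082189, minus strand) had the lowest p-value. It stood at 745, 741 and 741 CPM in the 3 bezafibrate libraries and at 510, 522 and 557 CPM in the 3 combination libraries. Every combination library was far below every bezafibrate library, and combination replicate 3 was the least reduced. The mean went from 742 ± 2.35 to 530 ± 24.7 CPM (SD, n = 3), a fall of 28.7% and a log2 change of -0.49 (edgeR adjusted p 1.31e-14, SE 0.029). The fall was -0.53 without combination replicate 3. Control libraries averaged 711 CPM of TFRC, and the ascites-alone libraries stood at 477, 477 and 484 CPM, below all 3 combination libraries.

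No other iron gene was called. Of 26 iron handling genes 23 were tested, and TFRC was the 1 called, where 0.128% of all genes were. The median log2 fold change was -0.04 against -0.00059 over all genes. FTH1 and FTL, the ferritin subunits that store iron, had log2 fold changes of -0.05 (SE 0.026) and -0.04 (SE 0.031), with overlapping groups. IREB2 and ACO1, which encode the iron regulatory proteins, had 0.00 (SE 0.040) and 0.01 (SE 0.047). FBXL5, which targets IREB2 protein for degradation, had the highest value of the list at 0.20 (edgeR adjusted p 0.821, SE 0.078). Its levels were 18.6, 17.4 and 18.8 CPM against 20.7, 20.6 and 21.8 CPM, which do not overlap, but it was not called. SLC40A1, the iron exporter ferroportin, had -0.28 with an SE of 0.30, and HMOX1, which releases iron from heme, had -0.21 with an SE of 0.14. TFR2, the second transferrin receptor, had -0.03 (SE 0.13). The divalent metal importer SLC11A2 had -0.07 (SE 0.055). The transferrin gene TF, HEPH and LCN2 did not pass the filter on low counts.

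The early, mevalonate arm of sterol synthesis leads from acetyl-CoA to farnesyl pyrophosphate. All 8 genes listed for it were tested, and 7 had a log2 fold change below 0 against 50.4% of all genes. Of the 8, 2 were called lower, IDI1 and HMGCS1, where 0.0882% of all genes were. The median of the arm was -0.16. IDI1, the isomerase of isopentenyl pyrophosphate, stood at 93.6, 93.6 and 93.2 CPM with bezafibrate alone and 77.5, 78.5 and 80.7 CPM in the combination. The groups were tight and separate, with a log2 change of -0.25 (edgeR adjusted p 0.00347, SE 0.043). HMGCS1, which makes HMG-CoA, went from 341, 342 and 330 CPM to 298, 315 and 309 CPM, a log2 change of -0.14 (edgeR adjusted p 0.0471, SE 0.030). HMGCS1 was just past the threshold. It was not called in 5 of the 6 fits that left out a library, all but the one without combination replicate 3, with HMGCS1 adjusted p from edgeR of 0.0589 to 0.394 in those 5, and of 0.483 with the spread of the 6 libraries alone. MVK, the mevalonate kinase, had the lowest value of the arm, -0.41 (edgeR adjusted p 0.0579, SE 0.092), from 17.1, 16.7 and 17.9 CPM to 13.9, 13.5 and 11.3 CPM. Its groups did not overlap, and it missed the threshold by little. MVD, GGPS1, FDPS and PMVK had values from -0.25 to -0.02. ACAT2 had 0.01 (SE 0.060).

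From squalene to cholesterol 12 genes were tested, 10 of them below 0 against 50.4% of all genes, with a median of -0.13. MSMO1 and SQLE were called lower, where 0.0882% of all genes were. MSMO1, a sterol demethylation enzyme, stood at 71.4, 69.8 and 68.6 CPM with bezafibrate alone and 57.4, 55.2 and 57.7 CPM in the combination. No value overlapped, and the log2 fold change was -0.30 (edgeR adjusted p 0.00168, SE 0.050). SQLE, the squalene epoxidase, had 96.0, 93.9 and 86.2 CPM against 74.7, 82.1 and 80.5 CPM, with a log2 change of -0.23 (edgeR adjusted p 0.0212, SE 0.046). The SQLE groups were separate by a narrower margin, and SQLE was not called without bezafibrate replicate 1, bezafibrate replicate 2 or combination replicate 1, at -0.19, -0.21 and -0.18. With the spread taken from the 6 libraries alone the edgeR adjusted p of SQLE was 0.259. FDFT1, the squalene synthase, missed the threshold at -0.16 (edgeR adjusted p 0.0533, SE 0.036), with 171, 171 and 172 CPM against 158, 150 and 152 CPM. DHCR7, which makes cholesterol in the last step of one branch, had -0.18 (edgeR adjusted p 0.0739, SE 0.041). CYP51A1, the lanosterol demethylase, had -0.14 (edgeR adjusted p 0.285, SE 0.038) and was called at -0.18 without combination replicate 3. LSS, SC5D, NSDHL, EBP and TM7SF2 had values from -0.14 to -0.05. HSD17B7 stood on the other side at 0.38 (edgeR adjusted p 0.945, SE 0.17), from 3.62, 3.71 and 3.50 CPM to 5.16, 3.82 and 4.98 CPM, and LBR at 0.01. Over both arms 11 of 20 genes had lower, non-overlapping combination libraries, where 4.83% of all genes did, and 1 had higher ones, where 4.44% did.

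Sterol sensing, uptake and handling were read on 12 genes, of which 11 were below 0 against 50.4% of all genes. INSIG1 alone was called, and it was lower, where 0.0882% of all genes were called lower. In 6 of the 12 every combination library lay below every bezafibrate library, where 4.83% of all genes did so. INSIG1 (ENSG00000186480, chr7:155297776-155310235, plus strand) had 60.6, 57.5 and 59.4 CPM with bezafibrate alone and 47.9, 45.3 and 47.4 CPM in the combination. The groups were separate and each was tight, with a fall of 20.6% and a log2 change of -0.33 (edgeR adjusted p 0.000664, SE 0.052). SREBF2 and SREBF1, which encode the SREBP factors, had -0.20 (edgeR adjusted p 0.0899, SE 0.047) and -0.16 (edgeR adjusted p 0.303, SE 0.043). STARD4, a carrier of cholesterol between membranes, had -0.30 (SE 0.10) with overlapping groups. SCAP, the escort protein, had -0.01 (SE 0.049). MBTPS1, a protease that cleaves SREBP precursors, was the 1 member above 0, at 0.09 (SE 0.041).

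Fatty acid synthesis and desaturation held 13 tested genes (THRSP and SCD5 did not pass the filter). Of these 12 were below 0 and 3 were called lower, SCD, FADS1 and FASN. SCD, the desaturase that makes oleate from stearate, had 1736, 1669 and 1682 CPM with bezafibrate alone and 1439, 1434 and 1502 CPM in the combination. The separation was wide relative to the spread, and the log2 fold change was -0.22 (edgeR adjusted p 1.86e-06, SE 0.025). FADS1, a desaturase of polyunsaturated fatty acids, had 374, 354 and 349 CPM against 318, 315 and 329 CPM and a log2 change of -0.16 (edgeR adjusted p 0.0118, SE 0.031). FADS1 was not called without bezafibrate replicate 1 (-0.13) or combination replicate 2 (-0.15), nor with the spread taken from the 6 libraries alone (edgeR adjusted p 0.209). FASN, the fatty acid synthase, had 562, 577 and 613 CPM against 491, 553 and 490 CPM and a log2 change of -0.19 (edgeR adjusted p 0.0314, SE 0.038). Combination replicate 2 was only just below the bezafibrate libraries for FASN, whose call ended under upper-quartile scaling (edgeR adjusted p 0.0824) and without bezafibrate replicate 2, bezafibrate replicate 3, combination replicate 1 or combination replicate 3 (FASN log2 fold changes of -0.20, -0.16, -0.16 and -0.16). It ended as well with the spread of the 6 libraries alone (FASN edgeR adjusted p 0.332). FADS2, the other front-end desaturase, had -0.21 (edgeR adjusted p 0.158, SE 0.052), and ACSS2, which makes acetyl-CoA from acetate, -0.26 (SE 0.099). ACACA, the acetyl-CoA carboxylase, had -0.12 (edgeR adjusted p 0.532, SE 0.037). ACLY, ELOVL5, ELOVL6, ME1 and MID1IP1 had values from -0.12 to -0.06. Taking the 4 lipid lists as 1 set of 45 tested genes, 40 were below 0, 8 were called lower and 0 higher, and the median was -0.12. Over all genes tested, 50.4% were below 0 and 0.0882% were called lower. The lipid lists were written with earlier results of the data known, so their direction is a description.

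**Figure D2:**
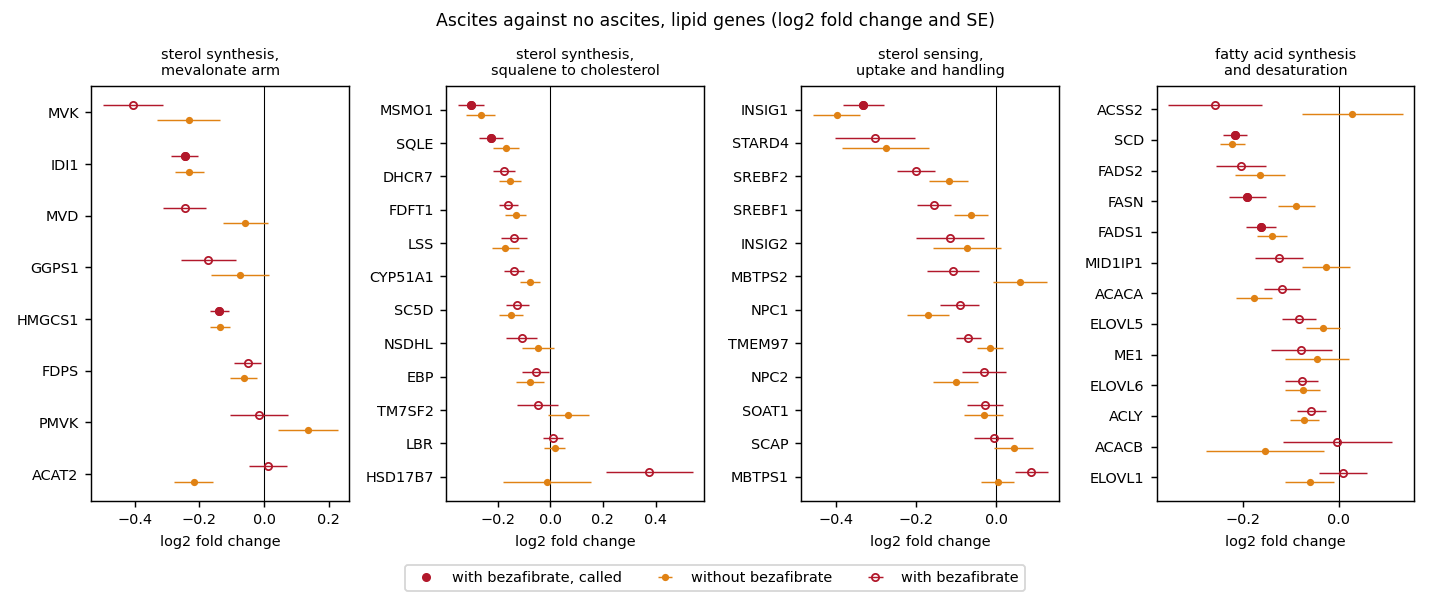
Log2 fold change (horizontal axis, bars are SE) of each tested member of the 4 lipid lists, ascites against no ascites, with bezafibrate (red, filled where called) and without it (orange). The red points of 40 of 45 genes lie left of 0, while HSD17B7 lies right of it with a wide SE.

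Promoters of called genes were searched for 3 motifs on both strands, from 250 bases before to 50 after the RefSeq start (GRCh38.p14). The motifs were a sterol regulatory element (TCACNCCAC), the CCAAT box (CCAAT), bound by NF-Y, a usual partner of SREBP, and the TEAD motif (GGAATG). They are held by 1.13%, 34.6% and 14% of 35116 promoters of that length. Of 15 named called genes 10 matched the RefSeq table, and 7 of these were searched. Those of SCD, INSIG1 and MSMO1 are shown because they hold CCAAT boxes and their genes fell together. The 250 bases before the start are printed 5′ to 3′ on the gene's strand, with motif letters in capitals (ATTGG is a CCAAT box on the other strand).

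SCD, chr10:100346983-100347232, plus strand: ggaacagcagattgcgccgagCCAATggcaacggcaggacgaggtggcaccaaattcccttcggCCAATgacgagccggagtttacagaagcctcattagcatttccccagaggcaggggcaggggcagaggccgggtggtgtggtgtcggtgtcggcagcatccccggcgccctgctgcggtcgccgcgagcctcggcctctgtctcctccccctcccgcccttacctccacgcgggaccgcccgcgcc

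INSIG1, chr7:155297628-155297877, plus strand: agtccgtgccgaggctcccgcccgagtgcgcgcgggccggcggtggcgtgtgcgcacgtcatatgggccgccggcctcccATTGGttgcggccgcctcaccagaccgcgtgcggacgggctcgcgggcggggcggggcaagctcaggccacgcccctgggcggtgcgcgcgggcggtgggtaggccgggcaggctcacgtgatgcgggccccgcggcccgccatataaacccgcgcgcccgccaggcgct

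MSMO1, chr4:165327419-165327668, plus strand: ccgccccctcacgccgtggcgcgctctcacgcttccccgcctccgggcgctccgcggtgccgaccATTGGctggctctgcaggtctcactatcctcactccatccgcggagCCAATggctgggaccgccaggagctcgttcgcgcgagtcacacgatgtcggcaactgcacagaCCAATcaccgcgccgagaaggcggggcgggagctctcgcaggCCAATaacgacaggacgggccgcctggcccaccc

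MSMO1 held 4 CCAAT boxes, beginning 185, 139, 76 and 34 bases before the start. SCD held 2, at 229 and 186 bases, and INSIG1 held 1, at 170 bases. FADS1 and TFRC held none of the 3 motifs, and none of the 7 promoters searched held TCACNCCAC. A match of letters is no evidence of binding, and the lack of TCACNCCAC does not show that a sterol element is absent.

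CCN1, CCN2 and ANKRD1, targets of YAP and TEAD, rose with ascites. Of 22 listed genes 21 were tested, 15 were above 0 and 6 below, and the median log2 fold change was 0.08. Of the list 3 were called higher and 0 lower. Over all genes tested, 50.4% were below 0 and 0.0401% were called higher. CCN1 and CCN2 encode secreted matrix-associated proteins. CCN1 (chr1:85580761-85583962, plus strand) had 66.3, 69.1 and 69.3 CPM with bezafibrate alone and 77.1, 87.7 and 80.8 CPM in the combination, a log2 change of 0.26 (edgeR adjusted p 0.0125, SE 0.050). CCN2 (chr6:131948176-131951373, minus strand) had 67.8, 70.3 and 70.4 CPM against 82.7, 83.3 and 78.5 CPM, a log2 change of 0.23 (edgeR adjusted p 0.0139, SE 0.045). Both pairs of groups were clear of each other. ANKRD1, an ankyrin repeat protein, had 58.7, 64.9 and 64.3 CPM against 71.0, 90.5 and 88.3 CPM, a log2 change of 0.40 (edgeR adjusted p 0.0314, SE 0.071). Combination replicate 1 was close to the bezafibrate libraries for ANKRD1, and the other 2 were well above. All 3 stayed below their levels in the control group, which the labels also set apart by DMSO and by no stated treatment time. Control cells averaged 98.6 CPM for CCN1, 136 CPM for CCN2 and 142 CPM for ANKRD1. No combination library reached a control library of these genes.

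These calls rested on few libraries. CCN1 and CCN2 were not called without bezafibrate replicate 1 (CCN1 0.24, CCN2 0.21), bezafibrate replicate 2 (0.27, 0.24) or combination replicate 2 (0.21, 0.22). ANKRD1 was not called without any 1 of the 3 bezafibrate libraries (0.35, 0.43 and 0.41) or without combination replicate 3 (0.35). None of the 3 was called with the spread taken from the 6 libraries alone, at edgeR adjusted p of 0.1 for CCN1, 0.118 for CCN2 and 0.379 for ANKRD1.

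Among the other targets, AMOTL2 had 0.16 (SE 0.057) and ARHGEF17 0.17 (SE 0.081), both with overlapping groups and neither called. CRIM1 had 211, 218 and 214 CPM against 218, 235 and 226 CPM and a log2 fold change of 0.08 (SE 0.036). AXL, a receptor tyrosine kinase, had 0.06 (SE 0.030). IGFBP3 and RBMS3 reached 0.39 and 0.34, but at levels under 10 CPM and with SEs of 0.277 and 0.155. PTPN14, FJX1 and ASAP1 were at -0.04, -0.02 and -0.02. The pathway's own genes gave 0 calls of 15 tested, with YAP1 at -0.05 (SE 0.032) and WWTR1, which encodes TAZ, at 0.03 (SE 0.037). Cytoskeletal targets of MRTF and SRF, another transcription pathway that reads the state of actin, gave 0 calls of 14, with 10 above 0. ACTG1 had 0.06 (SE 0.024) and TPM1 0.12 (SE 0.033).

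Promoters of CCN2 and ANKRD1 are shown because both genes rose and both windows hold the TEAD motif more than once.

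CCN2, chr6:131951373-131951622, minus strand: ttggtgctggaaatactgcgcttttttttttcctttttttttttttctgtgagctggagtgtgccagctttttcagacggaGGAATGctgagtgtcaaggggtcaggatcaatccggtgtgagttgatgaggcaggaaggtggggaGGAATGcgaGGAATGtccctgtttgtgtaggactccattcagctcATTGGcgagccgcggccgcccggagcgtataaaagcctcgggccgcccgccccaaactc

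ANKRD1, chr10:90921088-90921337, minus strand: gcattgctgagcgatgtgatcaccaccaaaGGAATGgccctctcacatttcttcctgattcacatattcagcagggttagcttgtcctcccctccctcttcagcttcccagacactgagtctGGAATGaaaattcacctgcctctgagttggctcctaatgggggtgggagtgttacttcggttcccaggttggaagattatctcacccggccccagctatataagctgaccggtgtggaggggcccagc

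CCN2 held 3 GGAATG motifs on its own strand, beginning 169, 104 and 95 bases before the start, and 1 CCAAT box at 59 bases. ANKRD1 held 2 GGAATG motifs, at 220 and 128 bases.

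FABP4 rose and the other PPAR targets were not called. It had 816, 797 and 772 CPM with bezafibrate alone and 867, 850 and 938 CPM in the combination, a log2 change of 0.15 (edgeR adjusted p 0.0152, SE 0.031). The gap between the groups was narrow and combination replicate 3 was the highest library. Without that library the log2 fold change of FABP4 was 0.11 and its edgeR adjusted p 0.0501, and it was not called either without bezafibrate replicate 2 (0.16) or bezafibrate replicate 3 (0.13), or with the spread of the 6 libraries alone (FABP4 edgeR adjusted p 0.306). Control cells averaged 61.6 CPM of FABP4, so the step with ascites was small beside the gap from control to bezafibrate alone. The solvent label and the stated treatment time also differ across that gap. Of 25 listed PPAR targets 20 were tested, 10 above and 10 below 0, with a median of 0.02. ACSL1, a long-chain acyl-CoA synthetase, had the lowest value at -0.36 (edgeR adjusted p 0.0698, SE 0.084), from 23.5, 23.1 and 23.0 CPM to 19.8, 16.9 and 16.9 CPM. PLIN2, a lipid droplet coat protein, had 876, 866 and 853 CPM against 839, 812 and 819 CPM and a log2 change of -0.07 (edgeR adjusted p 0.82, SE 0.027).

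**Figure D3:**
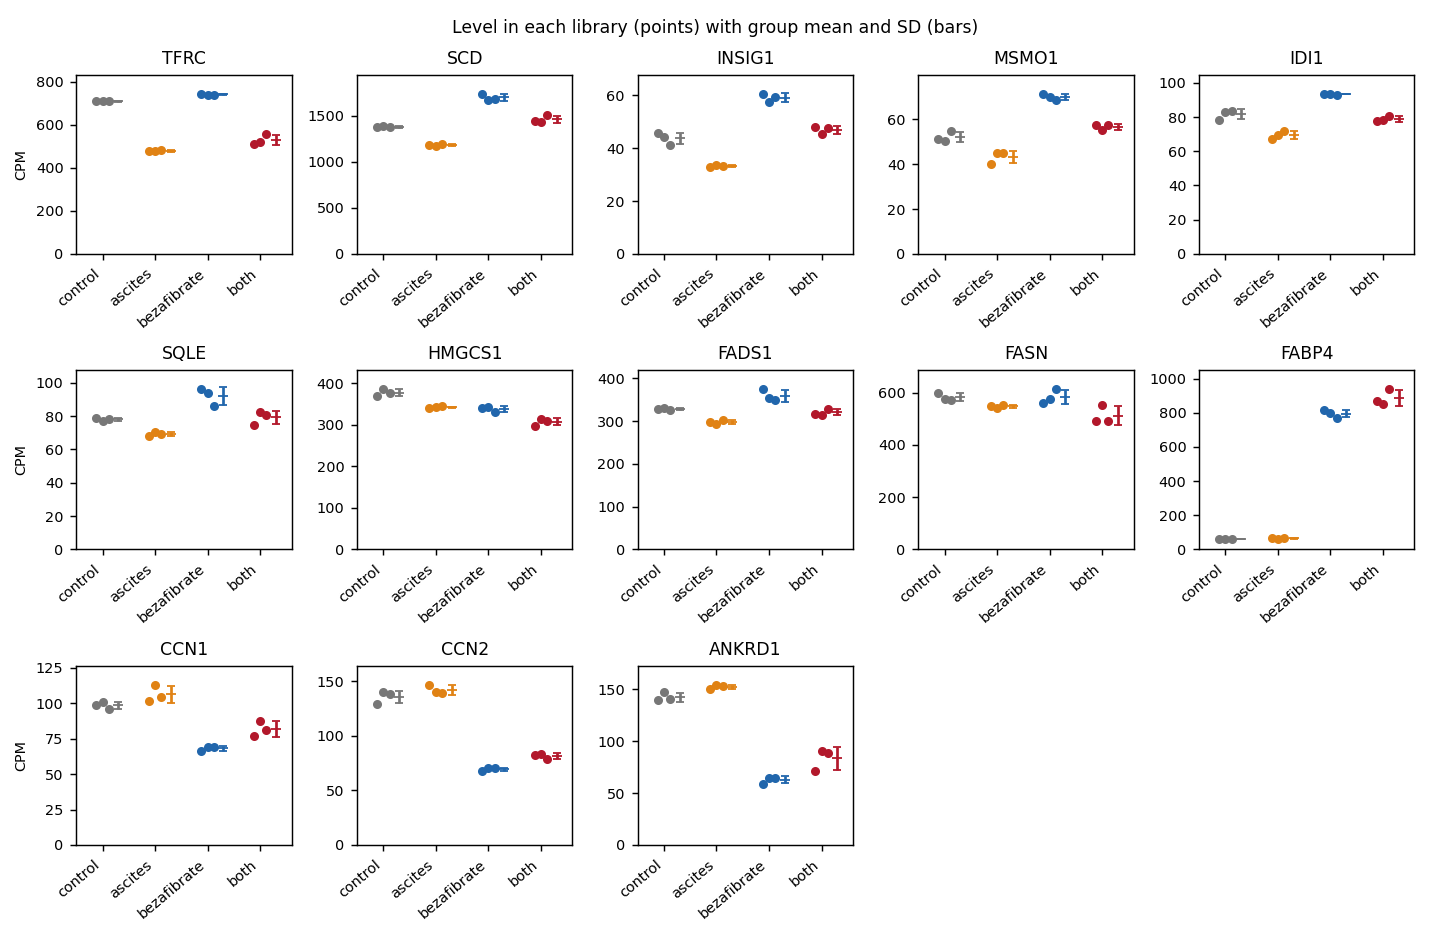
CPM of 13 called genes (vertical axes, from 0) in each library of the 4 groups, with the group mean and SD over 3 libraries beside the points. In the combination TFRC and the lipid genes lie below bezafibrate alone, and FABP4, CCN1, CCN2 and ANKRD1 lie above it.

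**Figure D4:**
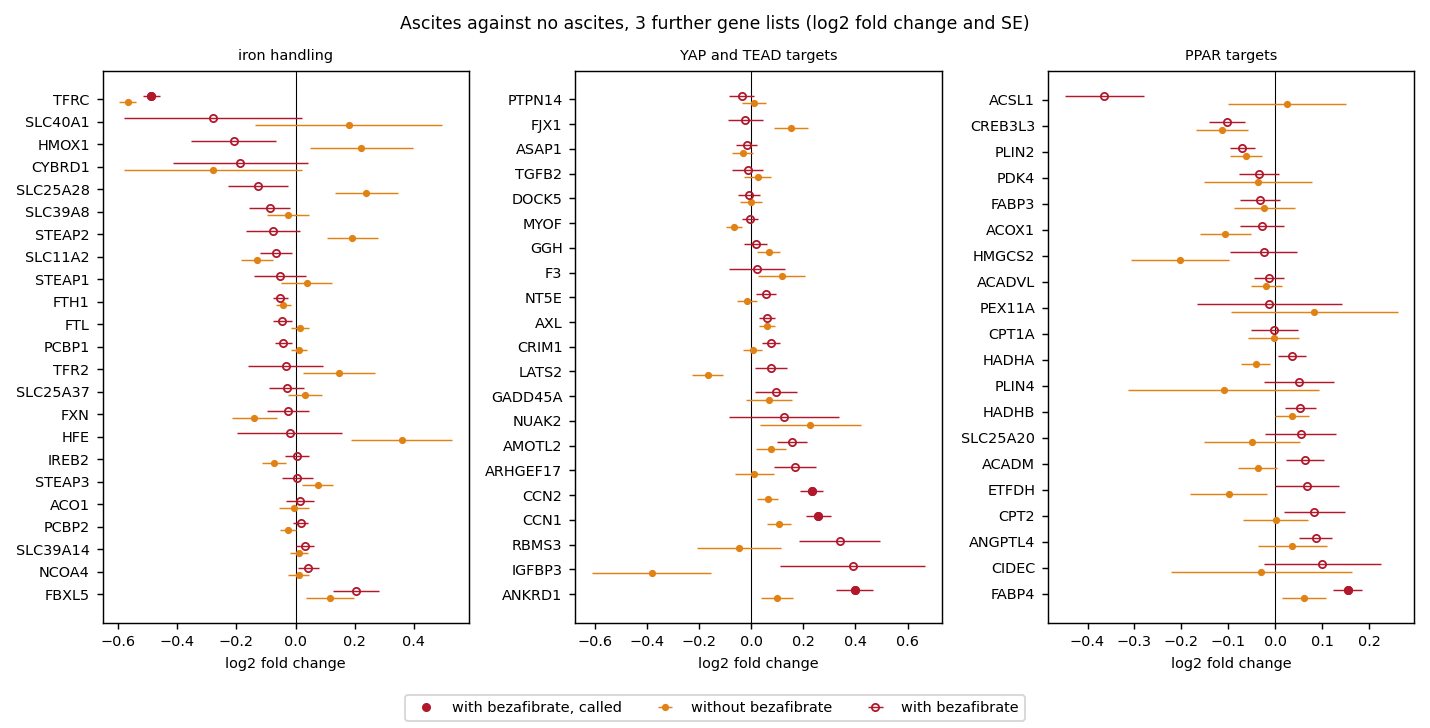
Log2 fold change (horizontal axis, bars are SE) of each tested member of the iron handling, YAP and TEAD and PPAR lists, with bezafibrate (red, filled where called) and without it (orange). TFRC stands alone at -0.49 among the iron genes, and 3 YAP and TEAD targets and FABP4 are the called points on the right.

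TREX2 and ENSG00000259171 were called but are uncertain, because each overlaps other genes on its own strand. TREX2 (chrX:153444720-153470587, minus strand), a DNA exonuclease gene, overlaps HAUS7 on the same strand and had 3.13, 2.10 and 2.75 CPM against 0.704, 0.849 and 1.18 CPM, a log2 change of -1.56 (edgeR adjusted p 0.0145, SE 0.31). With the counts of TREX2 and HAUS7 summed, an alternative chosen after seeing the data, the value was -0.03 (SE 0.069). ENSG00000259171 (chr14:20684587-20700576, plus strand), a protein-coding locus with no symbol in the tables, overlaps ANG and RNASE4. It had 1.27, 2.48 and 2.54 CPM against 3.87, 3.99 and 5.91 CPM, a log2 change of 1.11 (edgeR adjusted p 0.0152, SE 0.22), and the sum of the 3 genes gave 0.13 (SE 0.11). TREX2 was not called without bezafibrate replicate 1 (-1.42), bezafibrate replicate 3 (-1.54), combination replicate 1 (-1.37) or combination replicate 2 (-1.54), nor was ENSG00000259171 without bezafibrate replicate 1 (0.85), without combination replicate 3 (0.91) or with the spread of the 6 libraries alone (edgeR adjusted p 0.167). FADS1 overlaps FADS2 on the other strand, and CCN2, FABP4, HMGCS1 and IDI1 overlap annotated antisense genes. Strandedness is not given in the sources used here, so reads of such pairs cannot be told apart.

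Among genes not called, with an unadjusted p under 0.001 and a mean of at least 1 CPM, the 5 highest and the 5 lowest log2 fold changes were named by rule. Their edgeR adjusted p ranged from 0.0533 to 0.32. Higher were ARL14 at 0.32, C4orf19 at 0.27, SQOR at 0.23, ITPA at 0.20 and PFKFB2 at 0.20. SQOR, a mitochondrial sulfide oxidase, was nearest, with 50.6, 50.6 and 49.9 CPM against 58.6, 57.1 and 61.1 CPM (edgeR adjusted p 0.0533). Lower were MVK, ACSL1, MVD, TP53INP2 at -0.21 and FADS2, so 3 of these 5 belong to the lipid lists.

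The remaining lists had 0 called genes each in edgeR's test: proliferation (25 tested), immediate-early genes (20), hypoxia and glycolysis (17), the ATF4 stress response (17), TGF-beta targets (16), NRF2 targets (14), interferon genes (13), epithelial and mesenchymal genes (12), NF-kB targets (10), STAT3 with acute phase genes (8) and LXR targets (7). Inflammatory genes such as CXCL8, IL6, CCL2 and TNF did not pass the filter on low counts. CSF2, a cytokine under NF-kB control, had 5.55, 5.97 and 5.50 CPM against 7.80, 7.64 and 6.84 CPM, a log2 change of 0.39 (edgeR adjusted p 0.794, SE 0.14). ATF3, an immediate-early stress factor, had 0.38 (edgeR adjusted p 0.791, SE 0.14), with 4.88, 5.27 and 4.95 CPM against 6.69, 6.54 and 6.50 CPM. Both were separate between the groups and neither was called. Proliferation genes were tight around 0, from -0.09 for AURKB to 0.06, with MKI67 at -0.06 (SE 0.039). ABCA1, a sterol exporter controlled by LXR, had -0.02 (SE 0.065). At an unadjusted p under 0.05, the count was 3 of 10 tested NF-kB targets higher and 0 lower, from 20 listed. Over all genes 2.31% were higher and 2.48% lower. Immediate-early genes had 2 higher and 0 lower, and TGF-beta targets and epithelial and mesenchymal genes each had 2 higher and 1 lower. Proliferation genes had 0 higher and 1 lower, and the ATF4 stress response had 0 of either.

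**Figure D5:**
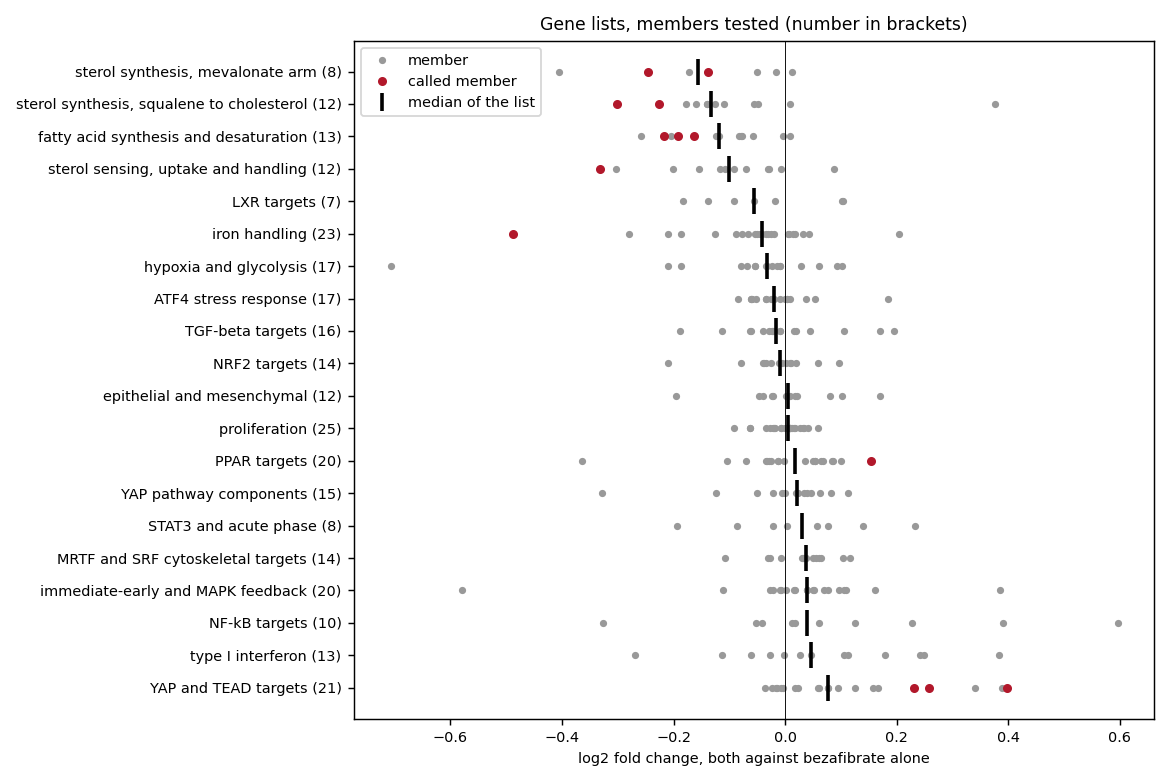
Log2 fold change (combination against bezafibrate alone, horizontal axis) of the tested members of 20 gene lists (rows, number tested in brackets), with called members in red and the list's median as a bar. The 4 lipid lists have medians from -0.16 to -0.10, and YAP and TEAD targets have the highest at 0.08.

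Ascites against control, in libraries that share none with this comparison, gave 11 called genes, all lower (0.0882% of those tested). That count was 3 (without control replicate 3 or ascites replicate 3) to 5 (without control replicate 1 or ascites replicate 2) with 1 library left out, and 33 (10 higher) with the spread of its own 6 libraries, so the overlap that follows holds for the fit over all 12 libraries. Called in both were 6 genes, or 37.5% of the 16 and 54.5% of the 11, among them TFRC, SCD, INSIG1, MSMO1 and IDI1. Of the 16 genes 15 had the same sign without the drug, the exception being ENSG00000259171 at -0.17, and 10 of the 11 had the same sign with it, the exception being RAB43 at 0.15. Over the 45 lipid genes 38 were below 0 without the drug, where 51.1% of all genes were, with a median of -0.08. With and without bezafibrate the values of the shared genes were -0.49 and -0.57 for TFRC, -0.22 and -0.22 for SCD, -0.33 and -0.40 for INSIG1, -0.30 and -0.26 for MSMO1 and -0.25 and -0.23 for IDI1. The shared genes were picked as called in both contrasts, so likeness in sign and size was favoured by that choice. ACACA, HR and SLC5A3 were among the genes called without the drug and not with it, where they had -0.12, -0.12 and -0.11. RAB43, likewise called without the drug alone, overlaps a read-through gene and is uncertain.

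The difference between the ascites effects with and without bezafibrate was tested as an interaction, and 0 genes were called. The lowest edgeR adjusted p was 0.98, 445 genes had an unadjusted p under 0.05, and DESeq2 also called 0, with 183 genes at an unadjusted p under 0.05. For SCD, IDI1, HMGCS1 and MSMO1 the differences were smaller than their SEs, at 0.01 (SE 0.036), -0.01 (SE 0.062), -0.00 (SE 0.043) and -0.04 (SE 0.075). Other lipid genes differed more: FASN by -0.10 (SE 0.054), MVD by -0.19 (SE 0.096), ACSS2 by -0.29 (SE 0.14) and ACAT2 by 0.23 (SE 0.085). Of the 45 lipid genes, 1, ACAT2, had an unadjusted p under 0.05 for the difference, where 3.57% of all genes did. TFRC differed by 0.08 (SE 0.041). CCN1, CCN2 and ANKRD1 had log2 fold changes of 0.11, 0.06 and 0.10 without the drug, and the differences were 0.15 (SE 0.068), 0.17 (SE 0.060) and 0.30 (SE 0.094). Their unadjusted p-values in edgeR were 0.0331, 0.00841 and 0.00569, and the adjusted p was 0.999 for each. With LATS2 and IGFBP3, 5 of the 21 tested YAP and TEAD targets had an unadjusted p under 0.05 for the difference. The share over all genes was 3.57%. In all 5 the log2 fold change with ascites was higher with the drug than without it. CCN1, CCN2 and ANKRD1 were called higher with the drug, and the same libraries enter the difference, so a positive difference was favoured for them. The list was also written with earlier results known, so the count is a description. LATS2 and IGFBP3 were below 0 without the drug, at -0.17 and -0.38, and had 0.08 (SE 0.061) and 0.39 (SE 0.28) with it. IGFBP3 averaged only 3.46 CPM in control and 1.45 CPM with bezafibrate alone. None of the 5 passed the adjusted threshold. FABP4 differed by 0.09 (SE 0.056).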

How the data were processed

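The authors deposited 1 table per library with a whole-number count for each of 19677 genes, 346 of them without a symbol and 18 listed a second time as a Y copy. The submitters' processing notes name Trimmomatic 0.39, STAR 2.7.9a, RSEM 1.3.3, DESeq2 1.28.1 and the build GRCh38, with no role or order. The annotation release, the strandedness and the counting step are not given in the sources used here, and RSEM estimates need not be whole, so the deposited counts may be rounded estimates. Groups and replicate numbers came from the sample titles.

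Counts were analysed in R 4.3.3 with edgeR 4.0.16. The function filterByExpr (minimum count 10, minimum total count 15) kept 12470 genes and removed 7207, which held under 0.05% of the counts of every library. Libraries were scaled by TMM, dispersion was estimated over all 12 libraries of 4 groups (8 residual degrees of freedom, biological coefficient of variation 3.06%), and contrasts were tested with robust quasi-likelihood F tests. Genes with a Benjamini-Hochberg adjusted p (over all genes tested) under 0.05 were called. The SE was computed as the absolute log2 fold change over the root of the F statistic. Within the 2 groups compared, replicates differed by more than counting error in every pair, which does not show that they came from separate cultures. Each library was counted as 1 replicate. The analysis was tested on simulated counts. Alternatives covered RLE and upper-quartile scaling, DESeq2 1.42.0, the filter, a replicate block, the 2 groups alone, a threshold of 0.01 and leaving out each library.

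The genes compared and the 20 gene lists, written from general knowledge, were chosen with earlier results of these data known. Named genes were all called genes, up to 5 uncalled genes in each direction with the most extreme fold change at an unadjusted p under 0.001, all tested members of the lipid, iron and YAP and TEAD lists, the leading members of other lists by p-value and level, and genes called without bezafibrate. Some genes that are counted in the totals over all genes, 1 of them called, are not reported here and were left out of the lists. Gene positions are from GENCODE 29 (GRCh38), matched by unversioned identifier. Promoters are from RefSeq (GRCh38.p14). No set test was run.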

Additional observations from a re-analysis of the deposited data

How the results depend on the processing

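The count of 16 called genes was 17 under RLE scaling and 16 under upper-quartile scaling, DESeq2 and a mean of at least 1 CPM. It was 52 without the filter on low counts (23 higher), 7 with only the groups compared, and 6 at an adjusted p under 0.01. Leaving out 1 library gave 9 (without bezafibrate replicate 2) to 28 (without combination replicate 3). TFRC, SCD, INSIG1, MSMO1 and IDI1 were called in all 13 alternatives that kept the threshold of 0.05. None of the named called genes changed direction in any alternative. Of 133 named genes not called, 12 were called under at least 1 alternative, and 39 changed sign. Ascites without the drug gave 11 called genes, 59 without the filter (25 higher), 33 with only the groups compared (10 higher), 4 at an adjusted p under 0.01 and 3 to 5 with 1 library left out. The interaction gave 0 called genes, 36 without the filter, and 0 to 3 with 1 library left out, the 3 arising without combination replicate 1. Replicate numbers did not pair the libraries: deviations of same-numbered libraries of the 2 groups correlated at -0.135, -0.0039 and -0.129, and 0 of 3 libraries correlated best with their own number. With the replicate number as a block, 14 genes were called, 8 without the drug and 1 for the interaction. FASN and HMGCS1 were the named genes not called under the block. Depth limits low genes most: the median SE of a log2 fold change was 0.18 at 1 to 10 CPM and 0.42 under 1 CPM, against 0.037 at 100 CPM or more, so small changes of low genes were not detectable at this depth. The causes of these differences were not tested.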

Other observations

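Combination replicate 3 lay apart from the other 5 libraries, and without it 28 genes were called, 12 of them among the 16. Without combination replicate 1, which did not lie apart, the count was 24, also with 12 of the 16, and 906 genes had an unadjusted p under 0.05 against 941 without replicate 3. The other 16 called without replicate 3 were chosen for description after their values were seen. Lipid enzymes among them were CYP51A1 at a log2 change of -0.18 (edgeR adjusted p 0.00788, SE 0.038) and ACSL3, a long-chain acyl-CoA synthetase, at -0.17 (edgeR adjusted p 0.00826, SE 0.035). Also lower were GNL3L at -0.20, ITPRIPL2 at -0.22, DMXL2 at -0.19 and PEG10, a gene derived from a retrotransposon, at -0.15. KRT7, an epithelial keratin, was higher at 0.12 (edgeR adjusted p 0.00945, SE 0.027). GPX1, a glutathione peroxidase, was higher at 0.21, BCL2L1, an inhibitor of apoptosis, at 0.13, and FSTL3, a secreted binding protein of activin, at 0.27. C19orf33, HPDL, PWP2, H2BC18, PSMG4 and ARFRP1 were higher at 0.22 to 0.74. Without replicate 3, FABP4, ANKRD1, FASN and ENSG00000259171 were not called. The YAP and TEAD list kept 2 called genes, CCN1 at 0.26 and CCN2 at 0.26, and the 4 lipid lists had medians from -0.17 to -0.10.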
